A study of Mus musculus with 6 samples.

Results

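The miR-29 family consists of mmu-miR-29a, mmu-miR-29b and mmu-miR-29c, and every mature strand whose name begins with one of these stems was taken as a member. The count table held 2 such strands among 535 mature miRNAs, miR-29a-3p and miR-29b-3p, and both were among the 525 miRNAs tested. mmu-miR-29c and the 5p strands of all family hairpins were not analysed here. Small RNA had been sequenced from wildtype CD1 mouse kidneys at embryonic day 15.5, with 3 libraries of cells enriched for nephron progenitors (MNP) and 3 libraries of whole kidney (MWK). The MNP cells were released by a short digestion and then purified by negative selection, in which magnetic beads removed cells carrying CD140a, CD105, Epcam or Ter119. The MWK samples were what was left of the kidneys after that digestion. Both groups were taken from the same 3 litters, from which 3 biological replicates were collected. No source used here states which MNP and MWK libraries share a litter. RNA was purified with the miRNeasy Micro Kit for MNP and the miRNeasy Mini Kit for MWK, so effects of the kit or of the isolation cannot be told apart from those of the cells. The isolation is known to carry over a minor amount of renal stroma.

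Members of the miR-29 family are best known as repressors of extracellular matrix genes, among them fibrillar and basement membrane collagens, elastin and fibrillin. Family members carry one common seed, the short stretch that largely decides which transcripts a miRNA silences, and so are thought to share many targets. In the kidney the family is known for falling in response to TGF-beta signalling and in fibrosis, where matrix accumulates.

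After taking the highest count over the rows of each mature miRNA, the libraries held 393951 (MNP1), 436112 (MNP2), 333850 (MNP6), 349241 (MWK1), 360221 (MWK2) and 355848 (MWK6) counts. Levels are given as CPM, counts scaled to a common library total, after TMM scaling, as mean ± SD with n = 3 libraries per group, and values of single libraries follow the order 1, 2 and 6. A count of 3, used as the detection floor, equalled 7.39, 6.54 and 7.88 CPM in the MNP libraries and 9.02, 9.45 and 8.76 CPM in the MWK libraries. The floor and the intervals below cover the counting error of a single library only, and not the spread between libraries. The reads carried no molecular identifiers, so amplified copies could not be told from separate molecules.

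miR-29a-3p, the strand of the chromosome 6 hairpin mir-29a, was higher in MNP than in MWK. It had 39, 38 and 27 counts in the MNP libraries against 9, 8 and 6 counts in the MWK libraries, which equalled 96.0, 82.8 and 71.0 CPM against 27.1, 25.2 and 17.5 CPM. All MNP libraries stood above all MWK libraries, and the groups did not overlap. The group means were 83.3 ± 12.5 CPM in MNP and 23.3 ± 5.06 CPM in MWK. The log2 fold change was 1.83 (SE 0.31), a 3.56-fold difference, with an adjusted p of 0.00046 in edgeR's quasi-likelihood test. In bulk libraries of this kind, fewer cells that express a miRNA and less of it per cell cannot be told apart.

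The counts behind these levels were low, so their precision was limited. For miR-29a-3p the exact Clopper-Pearson 95% intervals of the counts, scaled to CPM, were 68.3 to 131, 58.6 to 114 and 46.8 to 103 in MNP and 12.4 to 51.4, 10.9 to 49.6 and 6.43 to 38.1 in MWK. Those of MNP1 and MNP2 overlapped with no MWK library, and that of MNP6 overlapped with MWK1 and MWK2. An exact 2-sided permutation test of the CPM values gave p = 0.1, the smallest value that 3 against 3 libraries can give.

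miR-29b-3p, which can be cut from hairpins on chromosomes 6 and 1, showed the same direction. It had 25, 28 and 18 counts in the MNP libraries against 7, 5 and 6 counts in the MWK libraries, which equalled 61.6, 61.0 and 47.3 CPM against 21.05, 15.7 and 17.5 CPM. The groups again did not overlap, with MNP6 the lowest library of its group for both strands. The means were 56.6 ± 8.07 CPM in MNP and 18.1 ± 2.70 CPM in MWK. The log2 fold change was 1.63 (SE 0.34), a 3.09-fold difference, with an adjusted p of 0.0020 in edgeR's quasi-likelihood test, and the exact permutation test again gave its smallest p of 0.1. The Clopper-Pearson intervals were 39.8 to 90.9, 40.5 to 88.2 and 28.0 to 74.8 CPM in MNP and 8.46 to 43.4, 5.11 to 36.7 and 6.43 to 38.1 CPM in MWK. Those of MNP1 and MNP2 overlapped with MWK1 alone, and that of MNP6 overlapped with all MWK libraries.

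**Figure D1:**
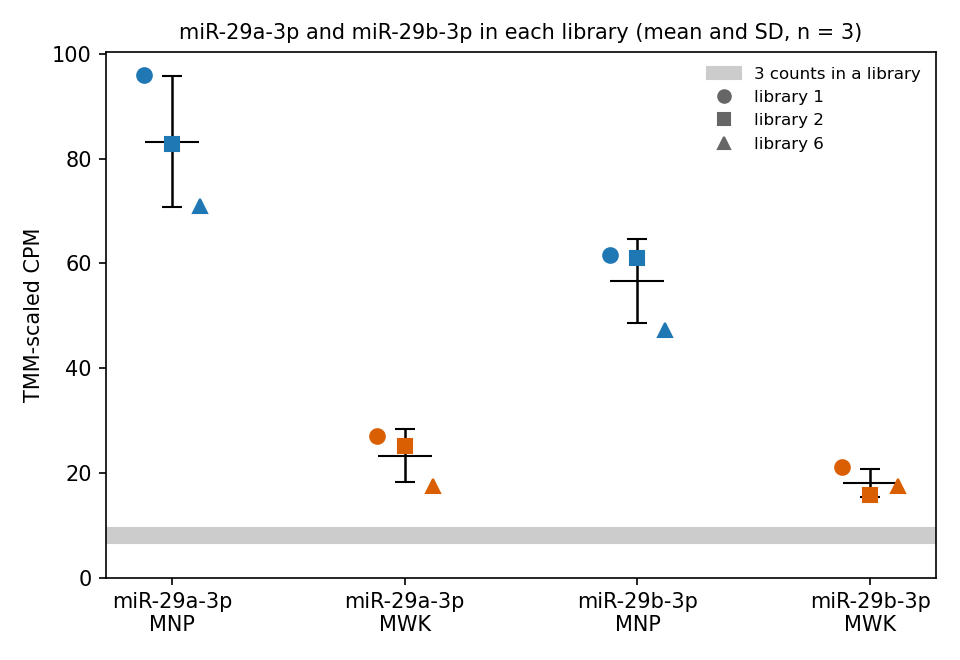
TMM-scaled CPM of miR-29a-3p and miR-29b-3p in each library, with blue symbols for MNP, orange symbols for MWK, black lines for the mean and SD of 3 libraries and a grey band for the CPM that 3 counts equal. The MNP libraries sit between 71.0 and 96.0 CPM for miR-29a-3p and between 47.3 and 61.6 CPM for miR-29b-3p, above all MWK libraries of the same strand.

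Both strands passed the threshold, an adjusted p of 0.05, as did 192 of the 525 miRNAs tested (36.6%). Of all miRNAs tested, 102 (19.4%) were higher in MNP and 90 (17.1%) were lower, and for 123 (23.4%) all MNP libraries lay above all MWK libraries. A higher level in MNP was therefore common, and 2 members are too few to set against these shares. By log2 fold change miR-29a-3p ranked 39 and miR-29b-3p ranked 53 of 525. By p they ranked 62 and 88.

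In MNP both strands lay near the middle of the abundance ranking, and in MWK lower. miR-29a-3p ranked 233 of 525 by mean CPM in MNP and 342 in MWK, and miR-29b-3p ranked 261 and 368. Among the 151 other miRNAs with a mean within 2-fold of the family's range, 18.7 to 107 CPM, 36 were higher in MNP (23.8%) and 25 were lower (16.6%). Their median log2 fold change was 0.0085 with a median SE of 0.37, beside a median of -0.011 and a median SE of 0.34 over all miRNAs tested. The SEs of miR-29a-3p and miR-29b-3p, 0.31 and 0.34, were thus of the size usual at this level.

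**Figure D2:**
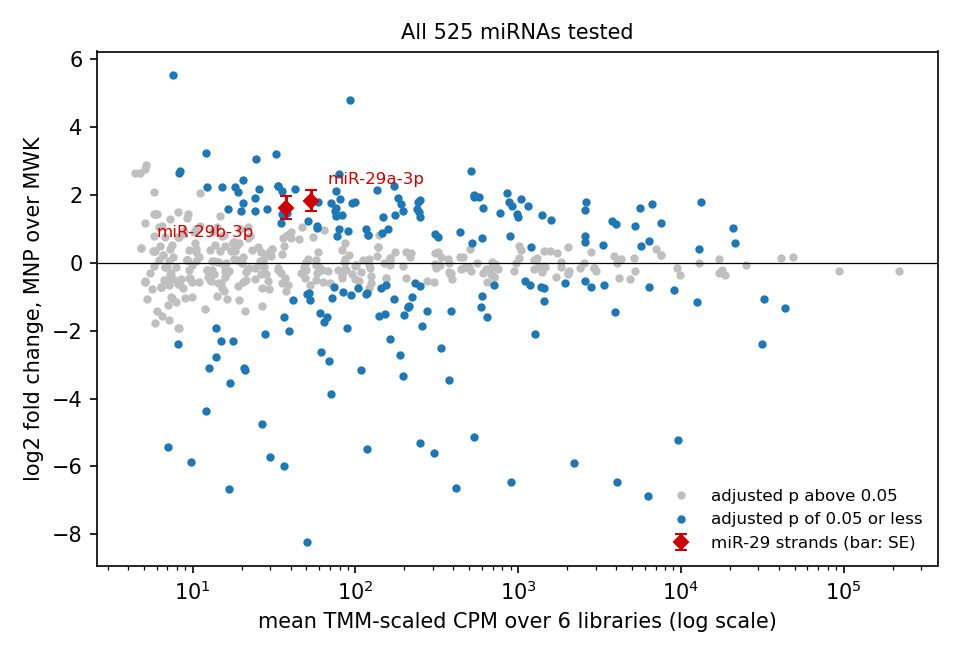
Log2 fold change of MNP over MWK against the mean TMM-scaled CPM over 6 libraries (log axis) for the 525 miRNAs tested, in blue where the adjusted p was 0.05 or less and in grey otherwise. The miR-29 strands, red diamonds with SE bars, lie at 1.83 and 1.63, above most miRNAs of similar abundance.

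Added together, miR-29a-3p and miR-29b-3p reached 157.6, 143.8 and 118.3 CPM in the MNP libraries against 48.1, 40.9 and 35.0 CPM in the MWK libraries. The summed level was 139.9 ± 19.9 CPM in MNP and 41.4 ± 6.55 CPM in MWK, a ratio of 3.38 (SD 0.72, propagated from the group SDs). No MNP library overlapped with an MWK library, and the sum was not tested. As a share of all counts in a library, both strands together made up 0.0150% ± 0.0014 in MNP and 0.00385% ± 0.00064 in MWK (SD, n = 3).

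Within the libraries, miR-29a-3p had 1.56, 1.36 and 1.5 counts for each count of miR-29b-3p in the MNP libraries against 1.29, 1.60 and 1.00 in the MWK libraries. The ratio does not depend on scaling, and it averaged 1.47 ± 0.10 in MNP and 1.30 ± 0.30 in MWK, with overlapping groups. miR-29a-3p was the more abundant strand in 5 of 6 libraries, and both had 6 counts in MWK6. In each library the counting intervals of the strands overlapped, and their order was not tested. Over the 3 libraries of a group, miR-29a-3p had 104 counts in MNP and 23 in MWK, and miR-29b-3p had 71 and 18. The log2 fold changes differed by 0.20, less than the SE of either, and this difference was not tested.

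The mature sequences are shown because they set which reads can be assigned to which member. They are taken from RefSeq (GRCm38.p6), 5′ to 3′, with the seed, bases 2 to 8, in capitals.
mmu-miR-29a-3p: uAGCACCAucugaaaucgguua
mmu-miR-29b-3p: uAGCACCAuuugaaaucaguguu
mmu-miR-29c-3p: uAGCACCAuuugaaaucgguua

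All 3 strands share the seed AGCACCA, and no other of the 1679 mature mouse miRNA names in RefSeq has it. Positions are counted from the 5′ end, and changes are written from the first strand named to the second. Between miR-29a-3p and miR-29c-3p there is 1 substitution over 22 bases, C10U. Between miR-29a-3p and miR-29b-3p there are 4 substitutions, C10U, G18A, U21G and A22U, and miR-29b-3p is 1 base longer. Between miR-29c-3p and miR-29b-3p there are 3, G18A, U21G and A22U. Whether reads of miR-29c-3p were counted for miR-29a-3p was not tested.

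The family is encoded in 2 pairs of hairpins. On chromosome 6, Mir29a (chr6:31062660-31062747, minus strand, GRCm38) and Mir29b-1 (chr6:31063023-31063093, minus strand) are separated by 275 bases. In the GENCODE M21 annotation Mir29a overlaps no other gene, and Mir29b-1 shares 2 bases with an exon of the lincRNA Gm27019 on the same strand. The nearest protein-coding gene is Klf14, 103582 bases from Mir29a. On chromosome 1, Mir29b-2 (chr1:195037040-195037120, plus strand) and Mir29c (chr1:195037547-195037634, plus strand) are separated by 426 bases. Both overlap an exon of the noncoding transcript A330023F24Rik on the same strand. Both also overlap an exon of Cd46, which encodes a complement regulator, on the opposite strand.

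The deposited counts do not tell the source hairpin of miR-29b-3p. It is listed once with mir-29b-1 and once with mir-29b-2, with identical counts on both rows, since the mature sequence is the same. Other miRNAs with hairpins within 1 Mb of the chromosome 6 pair moved in both directions. miR-335-5p and miR-335-3p, 321264 bases from mir-29a, were higher in MNP, with log2 fold changes of 0.78 (adjusted p = 0.0040 in edgeR) and 1.08 (adjusted p = 0.00015 in edgeR). On the same chromosome miR-182-5p and miR-96-5p, of a cluster known from sensory epithelia, were lower by log2 fold changes of -0.72 (adjusted p = 0.013 in edgeR) and -1.01 (adjusted p = 0.011 in edgeR), at 896668 and 893109 bases. The third member of that cluster, miR-183-5p, did not pass the threshold (log2 fold change -0.46, adjusted p = 0.095 in edgeR). Near mir-29b-2 the 1 tested miRNA was miR-3962, at 214976 bases (log2 fold change -0.43, adjusted p = 0.64 in edgeR).

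**Figure D3:**
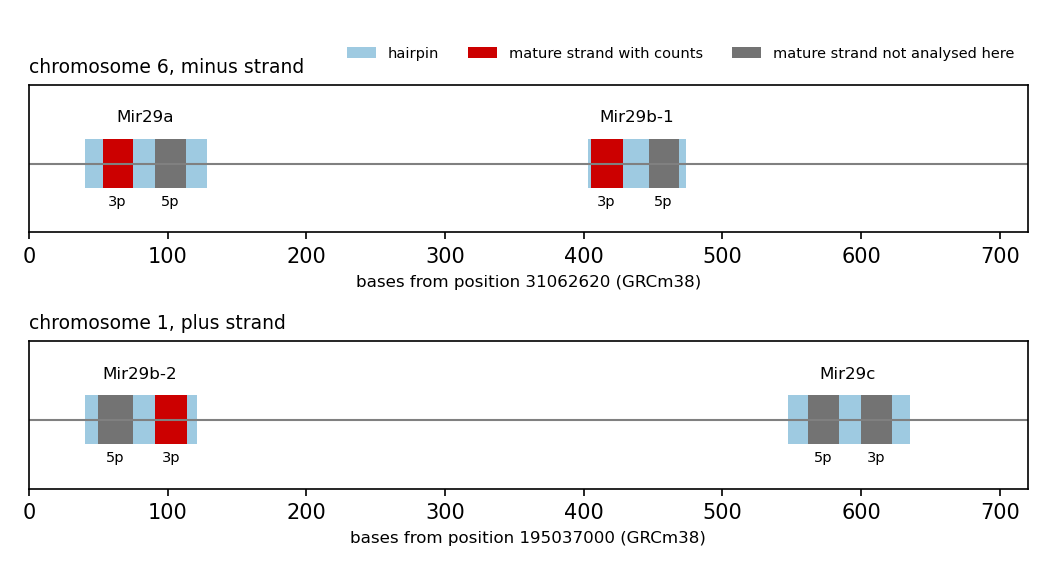
Map of the miR-29 hairpins (light blue) on chromosomes 6 and 1, drawn to scale in bases of GRCm38, with the mature strands that have counts in red and those not analysed here in grey. The hairpins of each pair are separated by 275 and 426 bases.

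The target side was described from the annotation alone, since the small RNA libraries do not read the mRNAs of miR-29 targets. The reverse complement of the shared seed, TGGTGCT, was searched on the transcribed strand in the longest annotated 3′ UTR of 14 matrix genes, which were listed because they are known matrix genes or known miR-29 targets. It occurred in 11 of the 14 (78.6%) and in 2755 of all 21020 protein-coding genes with a 3′ UTR (13.1%), at 0.973 and 0.106 matches per kb. The median 3′ UTR was longer in the list, 1283 against 961 bases. Within the first 1000 bases, counted only in 3′ UTRs at least that long, 4 of 9 listed genes (44.4%) and 1028 of 10241 genes (10.04%) had a match. Known targets of the family are largely recognised by this match, so the choice of the list itself favours a higher rate, and nothing is read from the difference. A match is a description of the sequence and not a measured site.

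Among the listed genes, Col5a1, a fibrillar collagen chain, had 4 matches, and Col5a3 of the same collagen type and Eln, which encodes elastin, had 3 each. The basement membrane collagen Col4a2 and the microfibril gene Fbn1 had 2 each, and Adamts9, Col1a1, Col3a1, Col4a1, Col5a2 and the laminin chain Lamc1 had 1 each. Col1a2, Nid1 and Sparc had none in their longest annotated 3′ UTR. The first match in each of the genes with the most matches is shown with its flanking bases (GRCm38, 5′ to 3′ on the strand of the gene), with the bases complementary to the seed in capitals. They lie at chr2:28037993-28038021 (plus strand) for Col5a1, chr9:20770770-20770798 (minus strand) for Col5a3 and chr5:134703726-134703754 (minus strand) for Eln.
Col5a1: ctatgaacattTGGTGCTgaattttttac
Col5a3: catgggctcctTGGTGCTgaggctctgag
Eln: ctcatcaacgtTGGTGCTactgcttggtg

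Other miRNAs studied in the kidney for roles in matrix deposition or TGF-beta responses did not share 1 direction. Of 24 such stems 23 had rows, and miR-216a was not analysed here. Of their 42 strands 7 were higher in MNP (16.7%) and 16 were lower (38.1%), beside 19.4% and 17.1% of all miRNAs tested. The median log2 fold change was 0.07, beside -0.011 over all. The higher strands were miR-382-5p (2.05), miR-433-3p (1.66), let-7c-1-3p (1.59), miR-433-5p (1.47), miR-382-3p (1.34), miR-26a-2-3p (1.01) and let-7c-5p (0.65), with log2 fold changes in parentheses.

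The lower strands included 7 of the miR-200 family, known as keepers of the epithelial state, and 6 of the 11 strands of the miR-30 family, which is abundant in kidney epithelia. The other 5 miR-30 strands did not pass the threshold, with log2 fold changes from -0.29 to 0.94. miR-30a-5p had a log2 fold change of -2.38 and miR-192-5p, a tubule miRNA, of -2.11. miR-21a-5p, which is known to promote fibrosis and had the highest mean of the list over all 6 libraries (in MWK alone miR-30a-5p was higher), had 21824, 25645 and 16130 CPM in the MNP libraries against 45404, 48917 and 37535 CPM in the MWK libraries. The groups did not overlap, and its log2 fold change was -1.05 (SE 0.17, adjusted p = 0.00038 in edgeR), opposite in sign to that of both miR-29 strands. Summed over the list, the level averaged 104716 CPM in MNP and 198577 CPM in MWK.

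Marker miRNAs of several other kidney cell types also differed between the groups. The mRNAs that define nephron progenitors are not read by these small RNA libraries and were not analysed here. The 7 epithelial strands of the miR-200 family all fell in MNP, from a mean sum of 23741 CPM in MWK to 234 CPM in MNP (226.5, 386 and 89.3 CPM in its libraries). miR-200a-3p was the most abundant of them, and miR-141-3p and miR-200b-5p had 0 counts in all MNP libraries, at least 4.61-fold and 13.9-fold lower against the mean floor. The median log2 fold change of these 7 was -6.62, or -6.46 with these last strands set to their bounds. Of the 3 tubule strands, led by miR-192-5p, 2 were lower (66.7%, beside 17.1% of all miRNAs tested), with a median of -1.59. The tubule sum averaged 518 CPM in MNP and 2161 CPM in MWK, while miR-215 was not analysed here. Both endothelial strands of miR-126a were lower (median -5.18), at 530.5 and 19865 CPM, with miR-126a-3p the more abundant.

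Blood cell miRNAs were lower for 5 of 11 strands (45.5%) and higher for 1 (9.1%), beside 17.1% and 19.4% of all miRNAs tested. Their median was -0.56, and the sums were 519 CPM in MNP and 1627 CPM in MWK. The strands of miR-486a and miR-486b had the same counts, and with these taken once, 4 of 9 strands were lower and the sums were 395 and 1320.3 CPM. The erythroid miR-451a had the highest mean in MWK and miR-486a-5p, also erythroid, in MNP. The higher strand, miR-223-5p of myeloid cells, had 0 counts in all MWK libraries and was at least 1.68-fold higher in MNP against the mean floor. Its partner strand miR-223-3p did not pass the threshold (log2 fold change 0.99, adjusted p = 0.28 in edgeR). Neither did miR-142a-3p (log2 fold change 0.74) or miR-142a-5p (log2 fold change -0.14). Of the 4 smooth muscle and pericyte strands, led by miR-143-3p, 2 were lower, beside 17.1% of all miRNAs tested. The median of these 4 strands was -0.81, and the sums were 25509 CPM in MNP and 63683 CPM in MWK.

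The summed level of stromal miRNAs overlapped between the groups, through MNP1. The sum of the 6 strands was 22215, 29566 and 33434 CPM in the MNP libraries against 21891, 23607 and 22318 CPM in the MWK libraries, with MNP1 inside the MWK range. For miR-199b-5p, with 2900.3, 3475 and 3479 CPM in MNP and 1861, 2062 and 1778 CPM in MWK, the groups did not overlap. It was higher in MNP (log2 fold change 0.79, adjusted p = 0.0018 in edgeR). The other 5 strands did not pass the threshold, and the median was 0.25. Of the 6 strands 16.7% were thus higher, beside 19.4% of all miRNAs tested. miR-199a-3p was the most abundant strand, and miR-199b-3p had the same counts. With these taken once, the sum was 15523, 20902 and 24242 CPM in MNP against 15117, 16141 and 15584 CPM in MWK, which again overlapped.

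Skeletal and heart muscle miRNAs, listed after values had been seen, had 4 tested strands of 4 of 7 stems, with miR-133b, miR-208a and miR-208b not analysed here. Their sum was 327, 459.7 and 142 CPM in the MNP libraries against 75.2, 139 and 61.3 CPM in the MWK libraries. All MNP libraries stood above all MWK libraries, although MNP6 and MWK2 were close. miR-206-3p, a miRNA of skeletal muscle with the highest mean in MNP (in MWK it was miR-1a-3p), had 187, 281 and 65.7 CPM against 0, 15.7 and 2.92 CPM, a log2 fold change of 4.81 (adjusted p = 0.00015 in edgeR). Its MWK1 and MWK6 values lay below the detection floors of 9.02 and 8.76 CPM, so the size of this fold is uncertain. In each of the other 3 strands the groups overlapped, and none passed the threshold. This left 25.0% higher beside 19.4% of all miRNAs tested, and the median was 0.94. MNP6 was the lowest MNP library for both miR-29 strands and for the epithelial, tubule, blood and muscle sums. It was the highest for the stromal sum, and lay between the others for the endothelial and the smooth muscle and pericyte sums. The part of any of these cell types in the difference of miR-29a-3p and miR-29b-3p was not tested.

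The miRNAs whose pattern was most like the summed miR-29 level were found by Pearson's correlation of log2 CPM over the 6 libraries, among 285 other miRNAs with a mean of at least 50 CPM. They were miR-181a-5p (r = 0.990), miR-335-5p (r = 0.989), miR-26a-2-3p (r = 0.985), let-7c-5p (r = 0.983) and miR-210-3p (r = 0.971). The libraries form 2 groups, so these values hold the difference between groups as well as the spread within them, and are given as a description. The 5 miRNAs were higher in MNP by log2 fold changes of 0.50 to 1.01, smaller than those of miR-29a-3p and miR-29b-3p, and each passed the threshold. They were picked for likeness to a sum that was higher in MNP, so their direction, calls and group separation largely follow from that choice. miR-210-3p, a miRNA induced by hypoxia, had 187, 181 and 197 CPM in the MNP libraries against 102, 107 and 96.3 CPM in the MWK libraries. miR-26a-2-3p, close in level to the family, had 76.3, 85.0 and 71.0 CPM against 42.1, 40.9 and 32.1 CPM. For both, the groups did not overlap.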

How the data were processed

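Small RNA libraries of MNP and MWK were processed by the authors, who used BBDuk for adapter trimming, Bowtie2 (2.2.3 in the submitters' processing notes) for alignment to mm10 and miRDeep2 for known miRNAs. The deposited values are estimated counts without normalization on 792 rows that each pair a mature miRNA with a precursor. These expected counts were rounded (3 rows held fractions) and tested as the design had set for counts, with the highest count per mature miRNA and library. The columns MNP6 and MWK6 match no single sample and entered by group without a replicate number. miRNAs with a sum above 10 counts were tested with edgeR 4.0.16 (TMM, quasi-likelihood, Benjamini-Hochberg over 525 miRNAs) in R 4.3.3. The SE was derived as the log2 fold change over the root of F. DESeq2 1.42.0 (the authors' tool, in version 1.18.1) and limma-voom (limma 3.58.1) were alternatives, beside other scalings, filters, row handling, a replicate block and the omission of each library. The steps were tested on simulated data. Permutation tests used scipy 1.17.1, and figures matplotlib 3.10.9. For similarity, a prior count of 2 entered log2 CPM. Named miRNAs are the family, the lists and the 5 most similar in pattern. Neighbours within 1 Mb and the muscle list were added after values were seen. Members and lists were chosen with earlier results of these data known.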

Additional observations from a re-analysis of the deposited data

How the results depend on the processing

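Both miR-29 strands stayed higher in MNP and past the threshold in all 15 alternatives that held them. The log2 fold change of miR-29a-3p was 1.66 to 1.96 when each library was left out in turn and 1.72 to 2.03 under the other settings, with adjusted p from 2.8e-06 to 0.0051. For miR-29b-3p these were 1.54 to 1.75 and 1.56 to 1.83, with adjusted p from 0.00019 to 0.016. The lowest adjusted p of each strand came from the replicate block in the 4 numbered libraries, whose pairing is not known. Without the block, edgeR gave adjusted p of 0.0029 for miR-29a-3p and 0.0075 for miR-29b-3p in these 4 libraries. The summed ratio was 3.14 to 3.68 without 1 library and 3.38 to 3.88 otherwise. Scaling by library totals moved the median log2 fold change of all miRNAs to 0.19, and relative to it the strands stood at 1.84 and 1.64. Requiring over 10 counts in each library removed both strands and gave no value for them. It left 120 of all miRNAs past the threshold, with fewer tested. With the main filter, 192 miRNAs passed the threshold in all libraries and 145 to 210 when 1 library was left out. The split of 102 higher and 90 lower became 121 and 74 with library totals, and lower calls were the more frequent with the replicate block (97 higher, 105 lower), without it in the same 4 libraries (78 and 91) and without MNP6 (80 and 84). The replicate block could be fitted in the 4 numbered libraries only, and gave log2 fold changes of 1.73 and 1.68 for the strands and 202 miRNAs past the threshold, beside 1.72, 1.68 and 169 without the block. Differences between libraries 1 and 2 correlated at r = 0.039 across all miRNAs tested between the groups, which does not settle whether equal numbers mark one litter. The planned ratio of miR-29c-3p to miR-29a-3p and the comparison of 5p with 3p strands were not run, since miR-29c and the 5p strands were not analysed here. Counts of 5 to 9 in MWK limit the precision of both folds.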
